A study of Mus musculus with 18 samples.

Results

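Toll-like receptors bind microbial products and products of damaged tissue at the surface of macrophages, neutrophils and other liver cells. Tlr4 senses lipopolysaccharide with the help of Lbp, Cd14 and Ly96, Tlr2 senses bacterial lipoproteins, and both receptors signal through the adaptor Myd88 to NF-kB. The interleukin-1 receptor uses the same adaptor, is activated by Il1b and is blocked by the antagonist Il1rn, and Nlrp3 builds the inflammasome that matures Il1b. The 10 genes described were taken by name from the 54532 genes of the liver expression table: Tlr2, Tlr4, Cd14, Ly96, Lbp, Myd88, Il1b, Il1rn, Nlrp3 and Tnf, the last of which encodes a cytokine that NF-kB induces.

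RNA-seq was run on whole livers of 18 male C57BL/6 mice (C57BL/6J in the study's methods) that were 6 weeks old on arrival, with 6 mice in each of 3 groups. The normal control group (NC) ate normal chow. The HFD group ate a high-fat diet for 14 weeks, stayed on it and was then given saline, and the SZ-A group ate the same diet and was given SZ-A, the alkaloid extract of mulberry twig (Ramulus Mori), in place of saline. The series description gives 8 weeks of treatment and the study's methods give a shorter time. The dose and route of the sequenced mice are not named in the sources used here. One mouse, NC6, carries the diet label of a high-fat diet against its title and was kept in NC, so its values are given where it bears on a result. Levels are FPKM, fragments per kilobase of gene scaled to the number of fragments of the mouse, and mean ± SD are over 6 mice. The values came from 17163191 to 20493907 fragments on genes per mouse. The fragments behind a value differed between the genes: Lbp had 1954 to 5420 fragments in a mouse and Myd88 265 to 456, whereas Tlr2 had 29 to 180, Nlrp3 12 to 87 and Tnf 0 to 14.

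Tlr2 and Il1rn were higher in the livers of HFD mice than of NC mice, while most of the other receptor, adaptor and cytokine genes did not pass the test. Tlr2 was 2.67 times and Il1rn 2.92 times as high in HFD as in NC by the means, and for both genes the 6 HFD mice lay above the 6 NC mice. Tnf was also higher in HFD, from a level near 0. With SZ-A the values of Tlr2 and Il1rn were 0.552 and 0.475 times those of HFD, but neither passed the test across all genes in that comparison.

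The start regions of Tlr2 and Il1rn are shown because these genes had the largest differences among those with a mean FPKM of at least 1. Both sequences are from RefSeq (GRCm38.p6), run 5′ to 3′ on the gene's strand and end where the annotated gene begins. The Tlr2 stretch is the minus strand of chr3:83841768-83841858, and the Il1rn stretch is the plus strand of chr2:24336610-24336852. A further match to the NF-kB consensus, inside the annotated first exon of Tlr2, is not shown. Capitals mark 2 overlapping matches to the NF-kB consensus in Tlr2, and the match to the AP-1 motif TGANTCA in Il1rn, which begins 141 bases before the RefSeq start.
Tlr2: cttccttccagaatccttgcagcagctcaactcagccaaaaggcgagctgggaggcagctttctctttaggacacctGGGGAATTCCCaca
Il1rn: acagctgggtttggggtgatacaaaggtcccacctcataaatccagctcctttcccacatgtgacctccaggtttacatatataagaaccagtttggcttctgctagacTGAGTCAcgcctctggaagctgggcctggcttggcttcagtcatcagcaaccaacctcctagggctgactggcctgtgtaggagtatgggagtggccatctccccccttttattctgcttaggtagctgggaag

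The RefSeq promoter table (250 bases before to 50 after each start) held 9 promoters of 6 of the 10 genes, since Il1rn had 3 starts and Nlrp3 had 2. Counted per promoter and on either strand, the NF-kB consensus stood in 2 of the 9 (Tlr2 and 1 of Nlrp3) and in 8.46% of all 32851 promoters. AP-1 (TGANTCA) stood in 1 of the 9, the Il1rn promoter shown, and in 7.81% of all. The PU.1 motif GAGGAAG was found in 2 of the 9 (1 of Nlrp3, and Tnf) and in 13.6% of all, and TATAAA in 4 of the 9 (Myd88, Il1b, 1 of Il1rn, and Tnf) and in 13.6% of all. These matches describe the letters in the windows, were looked for after the expression values were seen, and no binding was measured.

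Tlr2 (ENSMUSG00000027995, chr3:83836272-83841767) had a lowest, median and highest FPKM of 0.475, 0.781 and 1.27 for NC, of 1.70, 2.25 and 2.72 for HFD, and of 0.789, 1.01 and 2.09 for SZ-A. The HFD and NC mice did not overlap. In SZ-A, 5 of 6 mice lay below the lowest HFD mouse, and 2 of 6 lay above the highest NC mouse. Against NC, Tlr2 rose by 1.35 on the log2 scale in HFD (SE 0.20, limma adjusted p = 0.000654). Against HFD, Tlr2 in SZ-A differed by -0.87 (SE 0.21), a difference of the same sign in all 6 mice against the HFD mean that did not pass the test over all genes (limma adjusted p = 0.1004). Without SZ-A5, the highest SZ-A mouse for this gene, the difference was -1.03 with a limma adjusted p of 0.0380, so that Tlr2 was called. With all mice kept, it was also called with FPKM rescaled to a common sum and with sample weights. Those settings gave 216 and 233 calls over all genes, beside 15 in the main fit. Of 23 alternatives, 3 called Tlr2 in SZ-A against HFD. The highest NC mouse for Tlr2 was NC6, and the HFD difference without it was 1.47 (limma adjusted p = 0.000387).

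Il1rn (ENSMUSG00000026981, chr2:24336853-24351494), the natural antagonist of the interleukin-1 receptor, had the smallest SD relative to its mean of the 10 genes in NC, with a lowest, median and highest FPKM of 1.04, 1.15 and 1.29. In HFD these were 1.86, 3.48 and 4.73, and in SZ-A 0.869, 1.66 and 2.26. All 6 HFD mice exceeded the highest NC mouse. Of the SZ-A mice, 5 of 6 were below the lowest HFD mouse and 5 of 6 above the highest NC mouse. The HFD group was higher than NC by 1.39 on the log2 scale (SE 0.21, limma adjusted p = 0.000735). SZ-A differed from HFD by -0.999 (SE 0.26, limma adjusted p = 0.112) and from NC by 0.39 (SE 0.18, limma adjusted p = 0.200). Leaving out SZ-A4, the lowest of its group, brought the difference of SZ-A from NC to 0.55 with a limma adjusted p of 0.0299. The gene has several annotated start sites, and the FPKM does not separate its secreted from its intracellular forms.

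**Figure D1:**
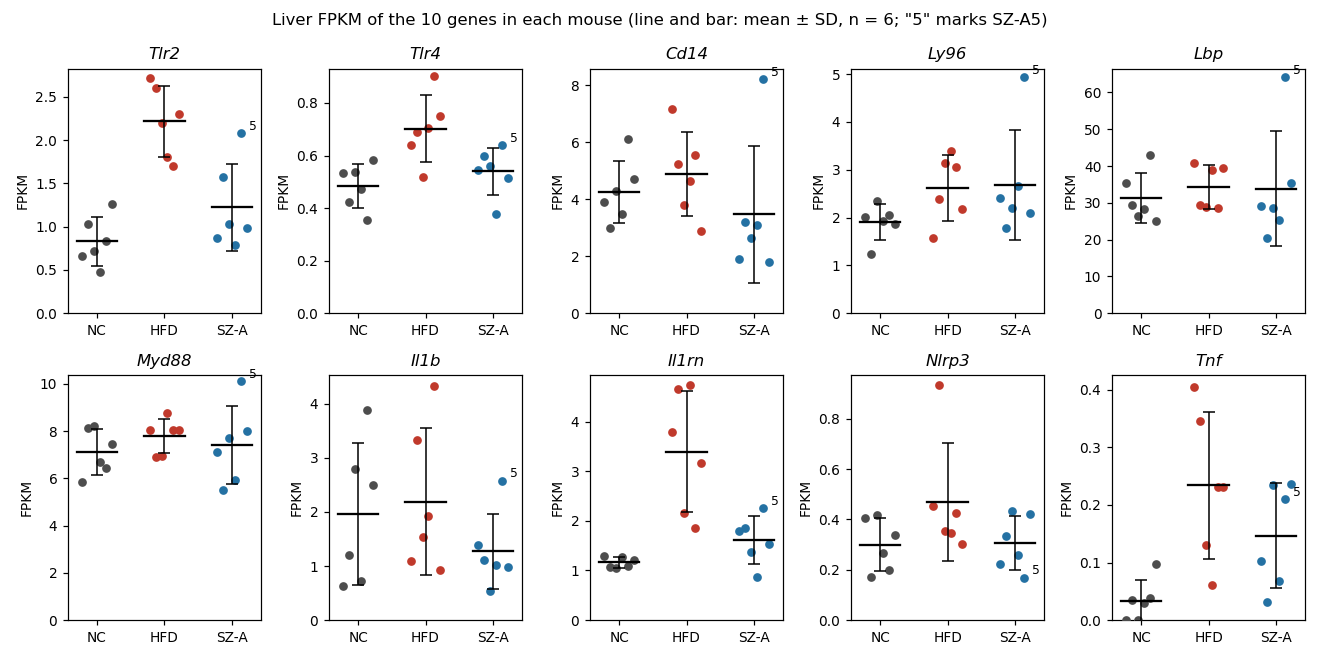
FPKM (vertical axes, linear, starting at 0) of the 10 genes in each mouse of NC (grey), HFD (red) and SZ-A (blue), with points for mice and a line and bar for mean ± SD (n = 6). For Tlr2 and Il1rn the 6 HFD points lie above the 6 NC points, and the point marked 5 (SZ-A5) is the highest SZ-A value for 8 of the 10 genes.

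Tlr4 (ENSMUSG00000039005, chr4:66827584-66930284), the lipopolysaccharide receptor, was expressed at a lower level than Tlr2 in every mouse, though nearly equal to it in NC4 (0.471 and 0.475 FPKM). Its lowest, median and highest FPKM were 0.356, 0.502 and 0.582 for NC, 0.518, 0.698 and 0.904 for HFD, and 0.378, 0.554 and 0.638 for SZ-A. The groups overlapped, and 5 of 6 HFD mice were above the highest NC mouse. Tlr4 had a mean under 1 FPKM and was tested with the filter of 0.1, where HFD differed from NC by 0.45 (SE 0.15, limma adjusted p = 0.0527). Without NC6, the highest NC mouse for this gene, the difference was 0.50 with a limma adjusted p of 0.0456. SZ-A differed from HFD by -0.32 (SE 0.14, limma adjusted p = 0.336), and 2 of 6 SZ-A mice lay below the lowest HFD mouse.

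The proteins that hand lipopolysaccharide to Tlr4 did not pass the test in any comparison. Lbp (ENSMUSG00000016024, chr2:158306493-158332852), which hepatocytes secrete, had the highest level of the 10 genes, at 31.3 ± 6.71 FPKM in NC, 34.3 ± 5.96 for HFD and 33.8 ± 15.7 for SZ-A. Its group ranges overlapped: 25.2 to 42.9 for NC, 28.7 to 40.7 for HFD and 20.4 to 64.2 for SZ-A, with medians of 29.0, 34.1 and 28.8. The wide SZ-A range came from SZ-A5, which stood at 64.2 FPKM while the next SZ-A mouse stood at 35.3.

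Cd14 (ENSMUSG00000051439), the co-receptor that receives lipopolysaccharide from Lbp, ran from 2.99 to 6.13 FPKM in NC (median 4.10), from 2.90 to 7.16 for HFD (median 4.94) and from 1.79 to 8.22 for SZ-A (median 2.87). HFD and NC overlapped over nearly their whole ranges (log2 difference 0.18, SE 0.21, limma adjusted p = 0.585). SZ-A differed from HFD by -0.62 (SE 0.32, limma adjusted p = 0.393) and from NC by -0.45 (SE 0.31, limma adjusted p = 0.392). SZ-A5 was again the highest mouse of its group. Without it, SZ-A differed from NC by -0.73, with a limma adjusted p of 0.0329, and from HFD by -0.91, with a limma adjusted p of 0.101.

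Ly96 (ENSMUSG00000025779, chr1:16688051-16709611) encodes MD-2, the part of the Tlr4 complex that binds lipopolysaccharide. Its lowest, median and highest FPKM were 1.24, 1.97 and 2.35 for NC, 1.58, 2.73 and 3.40 for HFD, and 1.78, 2.31 and 4.93 for SZ-A. In HFD, 4 of 6 mice were above the highest NC mouse, and the difference of 0.42 on the log2 scale (SE 0.19) had a limma adjusted p of 0.129. SZ-A (2.68 ± 1.14) differed from HFD (2.62 ± 0.693) by -0.01 on the log2 scale (SE 0.23, limma adjusted p = 0.991).

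Myd88 (ENSMUSG00000032508, chr9:119335934-119341411), the adaptor shared by these receptors, had a smaller SD relative to its mean than Lbp in each group. It ranged from 5.85 to 8.20 FPKM in NC (median 7.07), from 6.93 to 8.77 for HFD (median 8.04) and from 5.52 to 10.1 for SZ-A (median 7.41). The groups overlapped, and the log2 differences were 0.13 for HFD against NC (SE 0.10, limma adjusted p = 0.355) and -0.10 for SZ-A against HFD (SE 0.13, limma adjusted p = 0.772). The gene overlaps Acaa1a on the opposite strand, a peroxisomal thiolase gene with a mean of 109.5 FPKM. The library kit does not mark strand, so reads of the shared part cannot be told apart.

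Il1b (ENSMUSG00000027398, chr2:129364570-129371139), the inflammatory cytokine, had the largest SD relative to its mean among the genes over 1 FPKM in NC and HFD. Its lowest, median and highest FPKM were 0.626, 1.85 and 3.89 for NC, 0.921, 1.73 and 4.33 for HFD, and 0.546, 1.06 and 2.58 for SZ-A. The 3 groups overlapped, and the difference between HFD and NC was 0.23 on the log2 scale, less than its SE of 0.47 (limma adjusted p = 0.764). SZ-A differed from HFD by -0.67 (SE 0.39, limma adjusted p = 0.453), with 1 of 6 SZ-A mice below the lowest HFD mouse. The antisense gene Il1bos overlaps Il1b and had a mean of 0.0159 FPKM.

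Nlrp3 (ENSMUSG00000032691, chr11:59541568-59566956) was low in all groups, from 0.170 to 0.416 FPKM in NC (median 0.304), from 0.304 to 0.933 for HFD (median 0.390) and from 0.169 to 0.432 for SZ-A (median 0.297). One mouse, HFD2, held the value of 0.933, and the next HFD mouse stood at 0.455. With the filter of 0.1, HFD differed from NC by 0.48 (SE 0.25, limma adjusted p = 0.223) and SZ-A from HFD by -0.45 (SE 0.25, limma adjusted p = 0.451).

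Tnf (ENSMUSG00000024401, chr17:35199381-35202007) was measured by very few fragments: 0, 1, 0, 1, 1 and 3 in the NC mice, 14, 13, 4, 2, 7 and 8 for HFD, and 3, 1, 7, 2, 6 and 7 for SZ-A. As FPKM, the lowest, median and highest values were 0, 0.0326 and 0.0970 for NC, 0.0614, 0.231 and 0.404 for HFD, and 0.0307, 0.156 and 0.235 for SZ-A. In HFD, 5 of 6 mice were above the highest NC mouse, which was NC6. The log2 difference of HFD from NC was 1.26 (SE 0.30, limma adjusted p = 0.0131, filter of 0.1), on a scale to which 0.1 FPKM was added and which understates the change of so low a gene. SZ-A differed from HFD by -0.43 (SE 0.33, limma adjusted p = 0.614) and from NC by 0.84 (SE 0.29, limma adjusted p = 0.118).

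The study also assayed Tnf by real-time PCR, and reported it as higher in HFD and attenuated with SZ-A. Its primers are shown because they mark which stretch of the transcript that assay reads. On the transcript Tnf-201 (1639 bases) the forward primer starts at base 308 from the 5′ end, the reverse primer ends at base 441, and the product is 134 bases long. On Tnf-202 (1462 bases) the forward primer starts at base 305 and the reverse primer had no match, whereas the FPKM is of the whole gene. Both primers are printed 5′ to 3′ as designed.
forward: cttctgtctactgaacttcggg
reverse: caggcttgtcactcgaattttg

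Counted by comparison, 2 of the 7 genes with a mean of at least 1 FPKM were called in HFD against NC (Tlr2 and Il1rn, both higher), where a call needs a fold change above 1.2 with an adjusted p below 0.05. The count was also 2 without NC6. Of all 10216 genes tested, 20.2% were called in that comparison and 10.7% were called higher. With the filter of 0.1, 3 of 10 were called (Tnf in addition), beside 15.3% of the 15996 genes tested and 8.87% called higher. Tlr2 reached the filter of 1, and Tnf that of 0.1, only through groups where they were high, since their NC means were 0.832 and 0.0333 FPKM, so these counts are a description. Groups without overlap, HFD above NC, were found for 2 of 10 genes and for 4.76% of all genes.

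In SZ-A against HFD, limma called 0 of 7 and 0 of 10 genes, beside 0.147% and 0.0438% of all genes with the filters of 1 and 0.1. At an unadjusted p under 0.05 there were 2 of 7 (Tlr2 and Il1rn) and 3 of 10 (Tlr4 in addition), and voom on fragments called 0 with either filter. With DESeq2 at the same thresholds, the study reported many more genes for SZ-A against HFD than limma called here. Its enrichment of those genes named a MyD88-dependent Toll-like receptor process. The 0 calls here therefore do not show that these genes were unchanged. In SZ-A against NC, 0 of 7 and 0 of 10 were called, beside 9.6% and 5.6% of all genes. The unadjusted p was under 0.05 for 0 of 7 and for 2 of 10 (Il1rn and Tnf), and voom called 0 here too. The comparisons share mice, HFD in the first pair and NC or SZ-A in the others, so their estimates are not independent. Side by side, the median log2 difference of the 10 genes was 0.44 for HFD against NC, -0.44 for SZ-A against HFD and 0.08 for SZ-A against NC, and over all genes it was -0.01, 0.00035 and -0.0065.

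**Figure D2:**
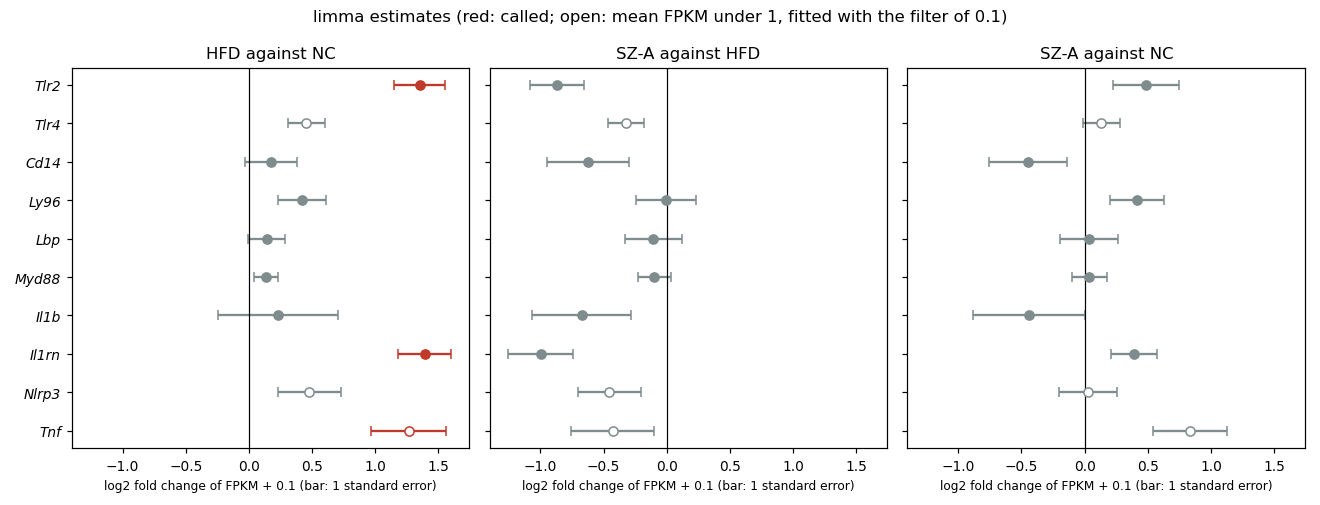
limma log2 fold changes of FPKM + 0.1 (horizontal axes) of the 10 genes in the 3 comparisons, with bars of 1 standard error, filled points for the filter of 1 and open points for the filter of 0.1. The called genes (red) are Tlr2, Il1rn and Tnf in HFD against NC, and none is called in the panels for SZ-A.

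Whole liver mixes many cell types, and fewer cells of a type and less RNA per cell cannot be told apart in it. Macrophage markers were also higher in HFD than in NC by group: 4 of 6 (Adgre1, Cd68, Lyz2 and Fcgr1) were called higher, beside 10.7% of all genes. Fcgr1 had an NC mean of 0.921 FPKM and reached the filter only through the groups where it was high, so the count is a description. The summed level of the 6 markers was 59.9 to 142 FPKM in NC, 158 to 215 for HFD and 112 to 167 for SZ-A. None of these 6 was called higher and 1 (Cd68) was called lower in SZ-A against HFD, where 0.147% of all genes were called. No macrophage marker was at 0 in any mouse. Relative to that sum, Tlr2 had a median of 0.733% for NC, 1.28% for HFD and 0.778% for SZ-A, and Il1rn one of 1.10%, 1.92% and 1.17%. For both genes the NC and HFD ranges of this ratio overlapped. They were 0.450% to 1.40% and 0.792% to 1.46% for Tlr2, and 0.778% to 1.81% and 0.867% to 2.40% for Il1rn. Tlr4 had medians of 0.437%, 0.344% and 0.405%. The HFD median was also below that of NC for Cd14, Ly96, Myd88, Lbp, Il1b and Nlrp3, and above it for Tnf. These ratios are not levels per macrophage, since hepatocytes secrete Lbp. Lyz2 was the largest part of the sum, with means of 56.3 FPKM in NC and 114 for HFD. The part of macrophage number in these differences was not tested.

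Neutrophil markers were also higher in HFD by group, and 2 of the 3 tested of 8 (S100a8 and S100a9) were called higher. S100a8 and the uncalled Retnlg had NC means of 0.812 and 0.593 FPKM. Both reached the filter only through groups where they were high, so this count too is a description. The sum of the 8 was 1.53 to 6.92 FPKM in NC, 6.08 to 20.9 for HFD and 4.84 to 18.6 for SZ-A. Ly6g was listed at 0 in all NC and SZ-A mice, and its HFD median was also 0, with a highest HFD value of 0.214 FPKM. Kupffer cell markers summed to 129 to 229, 174 to 348 and 194 to 268 FPKM, with 2 of 8 (Cd5l and C1qa) called higher in HFD. Of the 8 monocyte and lipid-associated macrophage markers, 2 (Spp1 and Cd9) were tested and 0 were called in HFD against NC. The others were under the filter, and each had a higher mean in HFD than in NC. For Gpnmb, Trem2 and Ccr2 the lowest HFD values (0.332, 0.295 and 0.439 FPKM) exceeded the highest NC values (0.280, 0.240 and 0.331). Such a gap was found for 4.76% of all genes. Ly6c2, Cx3cr1 and Itgax overlapped between HFD and NC. Stellate cell markers were called higher for 4 of 6 genes, and hepatocyte markers lower for 4 of 8 (Apoa1, Cps1, Ass1 and Serpina1a), with hepatocyte sums of 43542 to 62358, 29436 to 48677 and 34618 to 60757 FPKM. These marker counts are to be read beside the 10.7% of all genes called higher and 970 of 10216 called lower. No T cell or B cell marker had a mean of 1 FPKM over the 18 mice. Their part in the results was not tested.

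The surrounding pathway was described by 8 lists of 111 genes in all, of which 68 had a mean of at least 1 FPKM. In HFD against NC, 19 of 68 were called higher (27.9%) and 1 lower, beside 10.7% of all genes called higher and 20.2% called in either direction. Their median log2 difference was 0.21 beside -0.03 for all genes. The lists and the 10 genes share members. Among genes that Tlr4 and interleukin-1 induce, 9 of 15 were tested and 8 were called higher: Cxcl1, a neutrophil chemokine, by 2.60 (limma adjusted p = 0.000174), Lcn2, which binds bacterial siderophores, by 4.34 (adjusted p = 0.000253), Ccl2, a monocyte chemokine, by 3.05 (adjusted p = 0.000639), and Saa3, an acute phase protein, by 1.89 (adjusted p = 0.00244). Cxcl1, Ccl2 and Cxcl10 reached the filter of 1 only through the groups where they were high, with NC means of 0.6247, 0.243 and 0.914 FPKM, and 6 genes of the list were under the filter, so the count is a description. The sum of this list was 10.4 to 55.4 FPKM in NC, 127 to 1769 for HFD and 25.3 to 1421 for SZ-A, so it overlapped between HFD and SZ-A and not between HFD and NC. Most of the sum came from Saa1, Saa2 and Lcn2, with HFD means of 250, 117 and 54.6 FPKM, beside 4.16 for Cxcl1 and 2.57 for Ccl2.

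For the other lists, log2 differences of HFD from NC and then limma adjusted p-values stand in parentheses, and the counts are to be read beside the 10.7% of all genes called higher and 20.2% called in either direction. Among the Toll-like receptors, 3 of 12 were tested and 2 were called higher, Tlr2 and the flagellin receptor Tlr5 (0.81, limma adjusted p = 0.00465). Of the accessory proteins, 3 of 8 were called higher: Ly86, which pairs with Cd180 (0.74, limma adjusted p = 0.0103), Unc93b1, which carries receptors to endosomes (0.34, 0.0126), and the chaperone Cnpy3 (0.39, 0.0216). The adaptors and kinases gave 1 higher and 1 lower of 13, namely the kinase Irak4 (0.33, limma adjusted p = 0.0247) and the adaptor Tab2 (-0.43, 0.00396). For these 13 the median of -0.07 was near that of all genes.

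Genes of NF-kB and its feedback were called higher for 3 of 15, again beside 10.7% of all genes called higher and 20.2% called in either direction. These were the subunit Nfkb2 (0.64, limma adjusted p = 0.00291), the inhibitor Nfkbie (0.76, 0.0270), which had an NC mean of 0.827 FPKM and also reached the filter through other groups, and Tnip1, a partner of the inhibitor Tnfaip3 (0.58, 0.00460). The interleukin-1 family gave 2 of 7, both of them antagonists: Il1rn, and Il18bp, which neutralises interleukin-18 (0.69, limma adjusted p = 0.00692). The receptor Il1r1 differed by more than Il18bp but was not called (0.96, limma adjusted p = 0.118). Of the 7, 6 were higher and 1 lower in HFD. In the inflammasome list 0 of 5 and in the TNF list 0 of 8 were called, although 1 and 3 had an unadjusted limma p under 0.05. Pycard, the inflammasome adaptor, was under the filter at 0.149 ± 0.0743 FPKM in NC and 0.309 ± 0.0735 for HFD.

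In SZ-A against HFD none of the 68 was called by limma, with 14 at an unadjusted p under 0.05 and a median of -0.10 beside 0.03 for all genes. In SZ-A against NC, 6 were called higher and 2 lower, 11.8% of the 68 beside 9.6% of all genes, a share near that of all genes. The 6 were Cnpy3, the receptor inhibitor Sigirr, Il18bp, Cxcl1, Lcn2 and the feedback gene Socs3, and the 2 were Tab2 and Nek7, which binds Nlrp3.

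**Figure D3:**
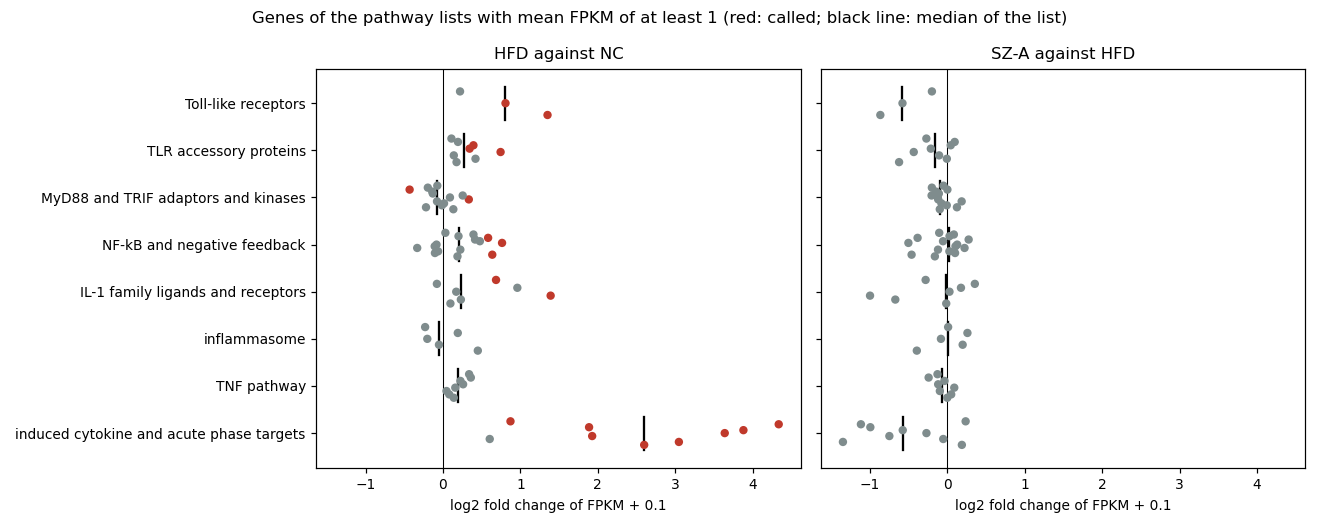
limma log2 fold changes of FPKM + 0.1 (horizontal axes) for the genes of the 8 pathway lists with a mean of at least 1 FPKM, in HFD against NC (left) and SZ-A against HFD (right), with called genes in red and a black line at each list's median. The induced targets reach 4.34 on the left with 8 of 9 called, and no gene is called on the right.

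The 10 genes did not vary as a unit from mouse to mouse. After the mean of each group was taken off, Pearson's r over the 18 mice was highest for Myd88 with Lbp (0.57), Tlr2 with Cd14 (0.53), Cd14 with Il1b (0.53), Ly96 with Il1b (0.49) and Cd14 with Lbp (0.49). Without SZ-A5 these values were 0.30, 0.29, 0.43, 0.38 and 0.03. SZ-A5 was the highest SZ-A mouse for 8 of the 10 genes and the lowest for Nlrp3, and no other mouse was the highest of its group for more than 4.

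SZ-A5 also stood apart outside the 10 genes. The acute phase gene Saa1 was at 883 FPKM in it and at most 367 in the other SZ-A mice, Lcn2 at 101 against 49.6, Cxcl1 at 22.3 against 7.23, and the neutrophil gene S100a9 at 9.21 against 5.24. Its cholangiocyte markers summed to 12.3 FPKM, whereas the other 17 mice had 1.87 to 3.94, and the bile duct keratin Krt19 stood at 8.45 in it. The part of these differences in its Tlr2, Cd14 and Lbp values was not tested. HFD4 had the highest sum of induced targets, 1769 FPKM, and was the highest HFD mouse for 3 of the 10 genes, Tlr2 not among them.

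**Figure D4:**
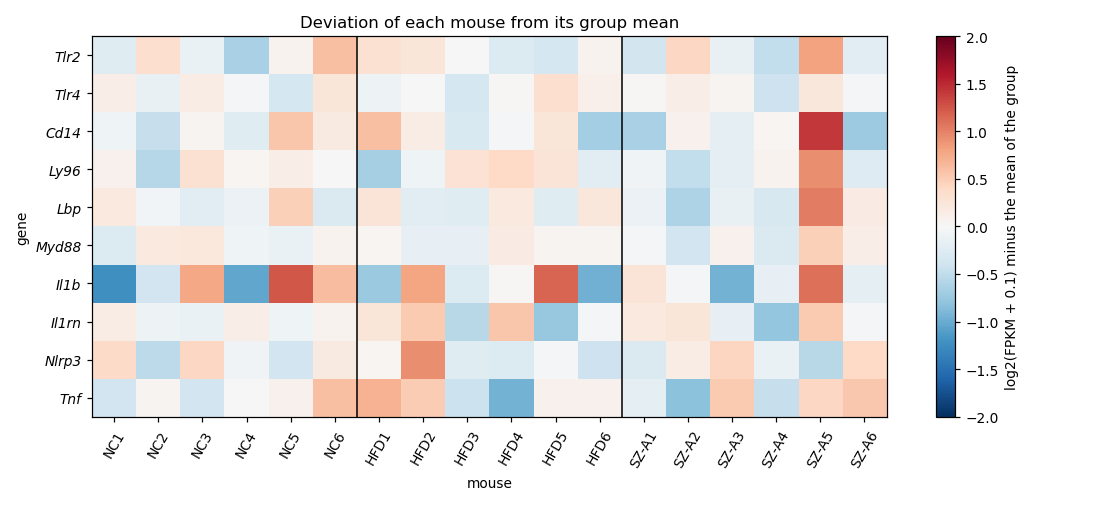
Deviation of log2(FPKM + 0.1) of each mouse from its group mean (colour scale, log2 units) for the 10 genes (rows) in the 18 mice (columns, groups separated by lines). The SZ-A5 column is red for all genes except Nlrp3, with its strongest colour for Cd14, and the Il1b row has strong colours on both sides of 0 in all 3 groups.

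The gene nearest to each member by the same measure (Pearson's r over 18 mice, group means taken off, genes with a mean of at least 1 FPKM) was mostly outside the pathway. Lbp was nearest to Glmp (0.92), a lysosomal membrane protein, and to Hp (0.90), the acute phase protein haptoglobin. For Tlr2 the nearest were Rp2 (0.82) and the interferon-induced GTPase Ifi47 (0.81), and for Il1rn Gm6565 (0.85) and Flot1 (0.84). Ly96 was nearest to the chemokine Cxcl13 (0.83) and to Atp1b3 (0.76), Myd88 to Ncoa5 (0.88) and Hacd1 (0.87), Cd14 to Gipc1 (0.80) and Mars (0.79), and Il1b to Prkrip1 (0.77) and Bag1 (0.76). The mice share tissue composition and library steps, so these values are a description.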

How the data were processed

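Per the study's methods and the labels, poly-A RNA of whole liver was made into libraries with the NEBNext Ultra kit, which does not mark strand, sequenced as paired reads, and aligned with HISAT2 2.0.5 to mm10. The submitters' processing notes also name featureCounts 1.5.0-p3. The authors deposited 1 table of FPKM, and the step that made the FPKM is not given in the sources used here. FPKM times gene length gave whole fragments for 100% of values within 0.05.

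Groups and replicate numbers came from the sample titles. The study tested with DESeq2, which needs counts, and this was not repeated. Each pair of groups was fitted with limma 3.58.1 in R 4.3.3 on log2(FPKM + 0.1), with an intensity trend, no covariates, and Benjamini-Hochberg adjustment over all genes tested. Genes with a mean across all mice of 1 FPKM or more were kept (10216 genes). Genes under it took their p from a filter of 0.1 (15996 genes). Calls needed a fold change above 1.2 and an adjusted p below 0.05. Scripts ran in Python 3.11.15 with pandas 2.3.3 and were tested on simulated data.

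The alternatives were other pseudocounts, filters, scalings, variance models, sample weights, call rules, a replicate block, voom on recovered fragments, and each mouse left out. Whether replicate numbers paired the mice was not settled. Deviations of same-numbered mice had r from -0.12 to 0.29, and mice of different numbers were not compared. Libraries of the same group all differed by more than sampling noise. The 10 genes, pathway lists, marker lists and motifs were chosen with earlier results of these data known. Named genes were the 10, up to 4 called genes per pathway list and comparison by smallest adjusted p, and the 2 nearest genes of each of the 10 that passed the filter. Genes named outside this rule were chosen after their values were seen.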

Additional observations from a re-analysis of the deposited data

Results flagged for a closer look

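Of the 30 combinations of gene and group, 4 held a mouse whose gap to its nearest group mate took a share of the group's range above Dixon's critical value for 6 mice, and chance alone marks about 1 in 20 groups. In SZ-A5, Cd14 was at 8.22 FPKM with the next SZ-A mouse at 3.21 (gap 0.780 of the range). Ly96 in the same mouse was at 4.93 FPKM with the next at 2.65 (0.722), and Lbp at 64.2 FPKM with the next at 35.3 (0.660). In HFD2, Nlrp3 was at 0.933 FPKM with the next HFD mouse at 0.455 (0.761).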

How the results depend on the processing

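Tlr2 and Il1rn were called higher in HFD against NC in 23 of 23 alternatives each, with limma or voom adjusted p from 0.000293 to 0.00336 and from 0.000193 to 0.00446. Over the 10 genes and 3 comparisons, 645 of 681 alternative values kept their direction and their side of the threshold, 1 lost its call, 15 gained one and 20 reversed. The lost call was Tnf with a pseudocount of 1 (0.25, adjusted p = 0.0220, under the fold limit). Tlr4 in HFD against NC was called in 7 of 22 alternatives and Ly96 in 2 of 23. In SZ-A against HFD the number of genes called rose from 0 to 1 (Tlr2) with FPKM rescaled to a common sum and to 2 (Tlr2 and Il1rn) with sample weights, and leaving out 1 mouse gave 0 to 1. In SZ-A against NC leaving out 1 mouse gave 0 to 1.

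With the mice left out in turn, these log2 differences crossed 0: Il1b in HFD against NC (-0.0124 to 0.479), Ly96 (-0.194 to 0.0908) and Lbp (-0.312 to 0.0184) in SZ-A against HFD, and Myd88 (-0.0585 to 0.114), Lbp (-0.171 to 0.159) and Nlrp3 (-0.0807 to 0.134) in SZ-A against NC. Sample weights brought Myd88 in SZ-A against NC to -0.0275. The cause was not tested.

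Rescaling to a common sum moved the median of all genes in HFD against NC from -0.03 to 0.15 and in SZ-A against HFD from 0.03 to -0.15, and changed the calls in HFD against NC from 1092 higher and 970 lower to 2100 and 334. Relative to that shift, Ly96 (0.60, adjusted p = 0.0305) and Tlr4 (0.62, adjusted p = 0.0190), which it called, differed by about as much as before. Over all genes, SZ-A against HFD had 15 calls, beside 0 without a filter and with the replicate block, 7 with the filter of 0.1, 31 with voom, 35 with all 18 mice in 1 fit, 216 rescaled, 233 with sample weights and 2 to 49 with 1 mouse left out. SZ-A against NC had 981, beside 564 without a filter and 1682 with sample weights, and 601 to 1179 with 1 mouse left out. Same-numbered mice did not deviate together in all pairs (r from -0.12 to 0.29), and the replicate block left the calls among the 7 genes at 2, 0 and 0. The few fragments of Tnf limit what could be detected for it.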
